A study of Mus musculus with 8 samples.

Results

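Isolated sites are the cytosines of the deposited table that had no other listed position on the same chromosome within 10 bases. Of 8492 sites listed for Tet2-deficient mast cells, 536 (6.31%) met this rule, and the other 7956 are called clustered sites here. The table gives the methylation level of single cytosines in poly(A) RNA from mast cells derived from bone marrow, FcεRI+ c-Kit+ cells grown from C57BL/6 mouse marrow with IL-3 and SCF. The labels describe wild-type and Tet2-/- cells, each with 2 biological replicates and 2 technical replicates of each. The levels analysed here are those of the 4 Tet2-deficient libraries, and genotypes are not compared. The labels name no Tet2 allele beyond Tet2-/- and do not say how many mice gave a replicate.

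5-Methylcytosine in RNA is made by methyltransferases of the NSUN family and by TRDMT1, and TET enzymes such as TET2 can oxidise it to 5-hydroxymethylcytosine. Bisulfite turns unmodified cytosine into uracil while 5-methylcytosine stays as cytosine. The level is thus the fraction of reads in which a position was read as cytosine. Unmodified cytosine that escaped conversion counts in the level as well, and no conversion rate was used here. A level is also a share over all molecules of a bulk sample, so fewer modified molecules per cell and fewer cells that carry them cannot be told apart.

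The authors selected the listed sites for the Tet2-deficient group, and every listed level is between 10% and 100%. Isolated sites were thus chosen by the listing, that is by which cytosines around them were listed. The authors call the listed sites specific to Tet2-deficient cells, so a neighbour may be unlisted for reasons other than a level under 10%. Their levels are given as a description, with no test. Values are given as the mean of 2 biological replicates after averaging technical replicates, with the SD (n = 2). Read numbers were not analysed. The depth of a site and its counting error are therefore not stated. Some levels are simple fractions that few reads can give, such as 40%, 50%, 75% and 80% in Ncapd2. Others, such as 11.16% in Arhgap45, need more reads. Whether differences between libraries or sites follow depth was not tested. The table holds no expression values, so the cell type could not be checked by its markers.

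Isolated sites fell into 3 kinds by their surroundings. Edge sites had a site of a dense stretch, a run of 3 or more listed sites with gaps of up to 10 bases, at 11 to 50 bases, and numbered 319 (59.5%). Lone sites had no other listed site within 500 bases and numbered 48 (8.96%). The remaining 169 are called sparse sites. The nearest listed site was 17 bases away at the median and no more than 20 bases away for 310 isolated sites (57.8%), while 28 isolated sites were more than 1000000 bases from any other. Of the lone sites, 31 were the only listed site of their gene, 12 lay in a gene with other sites and 5 lay outside gene spans.

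Only 2 of the 8492 listed positions lay in the RefSeq promoter windows used here, which run from 250 bases before to 50 after a gene start, and 0 lay in a microRNA hairpin. Both were lone sites of single-site genes, Ranbp9 and Ppm1m. They are shown because they are the sites whose surrounding sequence could be read, from the RefSeq windows of GRCm38 patch 6. Each line gives the strand of the gene, 5′ to 3′, with the listed position in capitals.
Ranbp9, chr13:43480975-43481003, minus strand: cagcgacagcgcccCcgggaagcgcagga
Ppm1m, chr9:106199099-106199127, minus strand: gggccgcgctccagCccggtgccctatca
In both, the listed position is a cytosine on the strand of the gene and is followed by another cytosine, so it is not in a CG pair. Of the 29 bases printed, 22 were G or C in each. The Ranbp9 site lay 16 bases and the Ppm1m site 174 bases before the gene start of the promoter window, yet 294 and 120 bases inside the start of the annotated gene span. The whole windows had 79.3% and 75% G or C, against a median of 52.7% over 32851 windows, of which 1.30% and 3.91% had at least as much. Ranbp9, a scaffold protein that binds the GTPase Ran, stood at 24.2% and 20% in the libraries of replicate 1 and at 20.8% and 13.5% in replicate 2. Ppm1m, a protein phosphatase of the PP2C family, stood at 15% and 27.3% in replicate 1 and at 21.1% and 10.5% in replicate 2. The replicates of both sites overlapped.

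Isolated sites averaged 38.3% ± 0.413 (SD, n = 2), against 52.6% ± 0.137 for clustered sites. The difference was -14.8 and -14.2 points in the libraries of replicate 1. In those of replicate 2 it was -13.9 and -14.3 points, so all 4 libraries had the same direction. The mean over libraries was -14.3 points ± 0.276 (SD, n = 2). All libraries were read at the same sites, so this SD does not show how the difference varies over genes. With each of 58 genes with both kinds counted once, the mean was -4.92 points, and genes ran from -35.8 to 20.7 points. Isolated sites ran from 11.4% to 100%, with the middle 50% between 21.3% and 49.8%. At 80 of them (14.9%) every library stood at 50% or more, against 34.9% of clustered sites, and 47 (8.77%) were under 20% in every library, against 2.02% of clustered sites. Level and listing are not independent, because no listed level is under 10%, and a stretch of low level can thus have fewer listed neighbours. Other reasons for an unlisted neighbour were not analysed. Among sites at 20% or more in every library the difference was -8.65 points, with isolation still defined over all listed sites.

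Levels differed by kind. Edge sites had a mean of 41.1% ± 0.702, sparse sites 35.9% ± 0.163 and lone sites 29.0% ± 0.626 (SD, n = 2 for each). The order edge, sparse, lone was the same in each of the 4 libraries. Medians over sites were 35.2%, 31.5% and 21.5%. Edge sites with a dense stretch on both sides, 113 in number, averaged 47.0% ± 0.695, and the 206 with a stretch on 1 side averaged 37.8% ± 0.706. Just inside the rule, the 63 sites at 11 bases from the next listed site averaged 45.5%, and just outside it the 95 sites at 10 bases averaged 41.2%, so the distance of 10 bases marks no step in level.

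**Figure D1:**
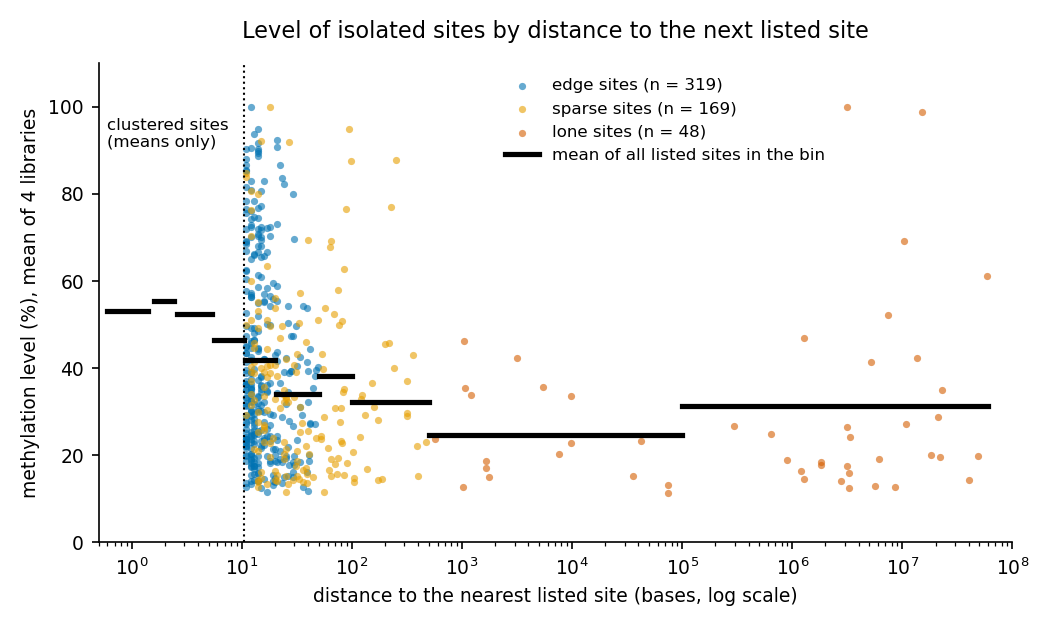
Methylation level in percent (vertical axis, mean of the 4 Tet2-deficient libraries) of each isolated site against the distance in bases to the nearest listed site (horizontal log axis); colours show edge, sparse and lone sites, black bars are the means of all listed sites in a bin of distance, and the dotted line marks the rule of 10 bases. Bin means go from 53.2% for sites next to another listed cytosine to 42.0% at 11 to 20 bases and 34.0% at 21 to 50 bases, and most lone sites lie under 40%.

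In single-site genes, a gene span held exactly 1 listed site, so some distance to other sites follows from the definition. There were 32 such genes with 31 sites, because the site at 145280591 on chromosome 5 lies in the spans of both Zscan25 and Gm38740; 30 of the genes were protein-coding. Their sites averaged 26.9% ± 1.86 (SD, n = 2) and a median of 19.6%, and 17 of the 31 sites had a mean under 20%. No other listed site lay within 5436 bases of any of them. The closest neighbour belonged to Cacna1h, whose next listed site lies in the neighbouring gene Tpsg1, the gamma tryptase of mast cells.

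Both libraries of 1 biological replicate were above both of the other at 16 of the 31 sites (51.6%), with each replicate the higher one at 8, where 30.4% of all listed sites did so. If the numbers in the column names are read the other way round, this held for 6 of the 31 sites (19.4%), where 26.3% of all listed sites did so.

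Low levels were common among single-site genes. Arhgap45, a GTPase-activating protein, had the lowest level, with 11.2% and 11.1% in replicate 1 and 11.6% and 11.7% in replicate 2, at 80027605 on chromosome 10. Arid3a, a DNA-binding transcription factor and the nearest gene with a listed site, 74779 bases away, stood at 14.7% and 14% in replicate 1 and at 12% and 11.8% in replicate 2. Both sites had replicates that did not overlap, by less than 3 points. Eif4b, a translation initiation factor that stimulates the helicase eIF4A, stood at 16.5% and 10.6% in replicate 1 and at 12.4% and 10.6% in replicate 2, at 102095001 on chromosome 15. Its replicates overlapped. Zscan25, a zinc finger gene, stood at 11.1% and 16.7% in replicate 1 and at 11.1% and 12% in replicate 2. Pdcd6ip, which encodes the ESCRT-associated protein ALIX, stood at 10.98% and 11.9% in replicate 1 and at 13.3% and 15.3% in replicate 2, at 113656101 on chromosome 9. The higher library of replicate 1 and the lower one of replicate 2 were 1 to 2 points apart.

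Lrrc45, a protein of the centrosome linker, stood at 15.8% and 13.2% in replicate 1 and at 13.3% and 13.9% in replicate 2, at 120720719 on chromosome 11. Rnf166, a ubiquitin ligase, stood at 10.48% and 15.5% in replicate 1 and at 20.6% and 10.99% in replicate 2. Nhlrc2 stood at 10.7% and 20.6% in replicate 1 and at 13.3% and 13.2% in replicate 2. The replicates of these 3 genes overlapped. The other sites with a mean under 20% lay in Kmt2d, a histone H3K4 methyltransferase, at 16.0%, Slc7a8, an amino acid transporter, at 16.5%, Rab1a, a GTPase of transport from the endoplasmic reticulum to the Golgi, at 17.4%, Ip6k1, an inositol hexakisphosphate kinase, at 17.7%, Slc25a23, a mitochondrial carrier, at 19.1% and Rnf125, a ubiquitin ligase, at 19.8%, besides Ppm1m, Hpgds and Ranbp9.

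A few single-site genes stood far higher. Rsph3b, a radial spoke protein of cilia, was at 100% in both libraries of replicate 1 and at 100% and 95.2% in replicate 2. Its site is at 6941948 on chromosome 17, and whether it shares reads with its relative Rsph3a was not tested. No other single-site gene reached 90% in every library. Ncapd2, a subunit of condensin I, stood at 40% and 50% in replicate 1 and at 75% and 80.0% in replicate 2, at 125186446 on chromosome 6. Trio, a guanine nucleotide exchange factor, went the other way, with 80.0% and 66.7% in replicate 1 and 33.3% and 28.6% in replicate 2, at 28025652 on chromosome 15. Both genes had replicates far apart, with SDs of 23.0 and 29.97 points. Cacna1h, a T-type calcium channel, also split by replicate, with 47.1% and 53.3% against 17.6% and 25%, at 25374970 on chromosome 17. Acsl5, a long-chain acyl-CoA synthetase, stood at 50% and 62.5% in replicate 1 and at 41.7% and 33.3% in replicate 2. In Acsl5, as in Ncapd2, Trio and Cacna1h, the replicates did not overlap.

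Tmc4, a transmembrane channel-like protein, stood at 33.3% and 55.6% in replicate 1 and at 44.4% and 35.7% in replicate 2. Rexo5, an RNA exonuclease, stood at 42.9% and 50% in replicate 1 and at 25% and 47.4% in replicate 2. The replicates of both overlapped. Cacnb4, a calcium channel subunit, stood at 35.0% and 30.4% in replicate 1 and at 36.4% and 38.1% in replicate 2, so its replicates lay close but did not overlap. The other single-site genes, with means from 20.05% for Zbed3 to 28.7% for the pseudogene Gm12919, included Mapk14, the kinase p38α, at 24.3% ± 6.87 (SD, n = 2), and Chmp4b, a subunit of ESCRT-III, at 26.4%.

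**Figure D2:**
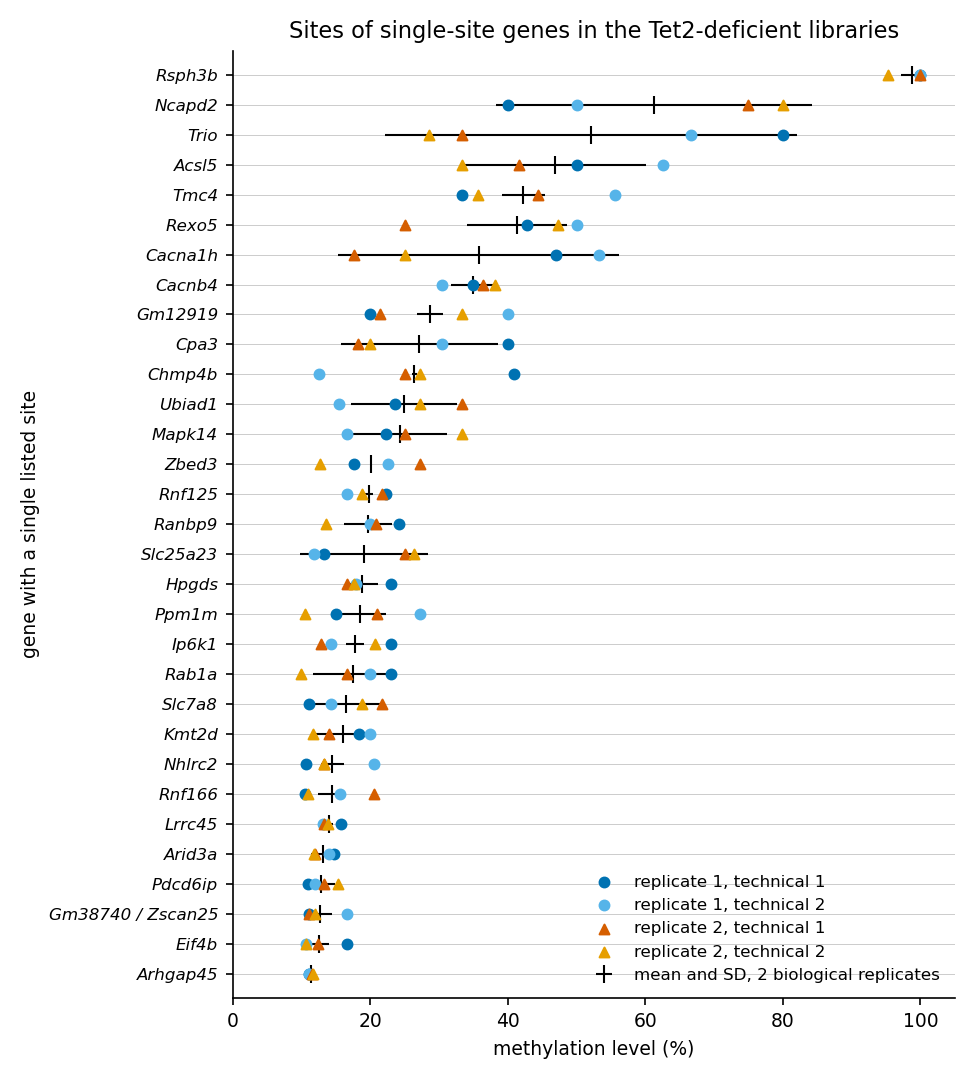
Level of methylation, in percent on the horizontal axis, at the 31 sites of single-site genes, ordered by mean; circles are the libraries of biological replicate 1, triangles those of replicate 2, black ticks the mean and bars the SD of 2 biological replicates. Most genes lie under 30%, Rsph3b stands at 98.8%, and the libraries of Ncapd2, Trio and Cacna1h separate by replicate.

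Mast cell genes were among the single-site genes. Cpa3, the granule carboxypeptidase of mast cells, had its site 10817113 bases from any other, at 40% and 30.4% in replicate 1 and at 18.2% and 20% in replicate 2. Hpgds, the synthase of prostaglandin D, stood at 23.1% and 17.9% in replicate 1 and at 16.7% and 17.6% in replicate 2. In both genes the libraries of replicate 1 were the higher ones and the replicates did not overlap, by 10 points in Cpa3 and by less than 1 point in Hpgds. Of 40 genes listed for mast cell identity and effector function, 7 had a listed site and 6 had isolated sites. Over all 49997 annotated genes, expressed or not, 110 had a listed site and 97 had isolated ones. The list was chosen with earlier results known, so nothing is read from its share. Its 41 isolated sites stood at 39.7% ± 1.72 (SD, n = 2) and a median of 32.2%, close to the median of 32.9% of all isolated sites. The other 4 genes were Il1rl1, Rab27b, Cd200r3 and Gab2, with 26, 5, 4 and 4 isolated sites.

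Il1rl1, the receptor for IL-33, had 26 isolated sites of 445 listed, 24 of them edge sites. They averaged 32.4% ± 3.37 against 39.4% ± 1.72 for its clustered sites (SD, n = 2), and ran from 13.1% at 40453250 to 89.3% at 40457634 on chromosome 1. The highest stood at 85.7% and 71.4% in replicate 1 and at 100% in both libraries of replicate 2. Cd200r3, an activating member of the CD200 receptor family, had a lone site at 44960174 on chromosome 16, 42613 bases from its other sites, with 25% and 20% in replicate 1 and 25% and 23.1% in replicate 2. Its 3 edge sites had means from 34.3% to 40.2%. Rab27b, a GTPase of granule release, had 5 edge sites at 90.2% ± 2.22 (SD, n = 2), against 90.8% for its clustered sites. At 70010984 on chromosome 18 all 4 libraries read 100%.

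Of 40 genes listed for cytokine and JAK-STAT signalling, 4 had a listed site and 3 had isolated sites. Over all 49997 annotated genes, expressed or not, these numbers were 110 and 97. The gene lists of this paragraph were also chosen with earlier results known, so nothing is read from their shares. The 3 signalling genes had 50 isolated sites at 39.1% ± 1.91 (SD, n = 2) and a median of 33.6%. Of these 44 lay in Inpp4b, a phosphoinositide phosphatase. Gab2, an adaptor downstream of KIT that is also in the mast cell list, had a lone site at 97096460 on chromosome 7 with 22.2% and 40% in replicate 1 and 40% and 33.3% in replicate 2. A sparse site 1210 bases away stood much higher, at 75% and 62.5% in replicate 1 and at 40% and 100% in replicate 2, so its libraries covered a wide range. Socs3, the feedback inhibitor of JAK-STAT signalling, had 2 edge sites at 36.6% ± 8.89 and 43.5% ± 6.02 (SD, n = 2 for each). Of 22 translation factors, Eif4b alone had an isolated site. Of 17 entries for RNA cytosine methylation and TET genes, 16 were in the annotation and 0 had a listed site, and the same was so for 20 markers of neutrophils, macrophages, B cells and T cells. Of 7 defining mast cell markers, Cpa3 alone had a listed site. Whether genes without listed sites were covered by reads was not analysed.

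Position in the gene set the single-site genes apart from the other kinds in description. In 20 of 32 single-site genes (62.5%) the site lay within 3000 bases of an end of the gene span, and in 13 within 1000 bases. Of 378 pairs of an edge or sparse site and its gene, 9 (2.38%) lay within 3000 bases and 0 within 1000 bases. The shares for clustered sites were 1.52% and 0.331% of 6050 pairs. Single-site genes were shorter, with a median span of 27833 bases against 71051 for genes with more sites, so that the outer 3000 bases made up 31.8% of their spans on average, against 12.8% in the genes with clustered sites. Counting each gene once, 62.5% of the sites in single-site genes and 7.42% of clustered sites lay within 3000 bases. Sites of a gene share their reads and surroundings, so no test was made over sites. The distance was chosen after the positions were seen.

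Both ends of the genes were represented. The strand of 25 single-site genes was known from the promoter windows, and 12 of their sites were nearer the start and 13 nearer the end of the gene. Within 300 bases of the start lay the sites of Tmc4 (83 bases), Ppm1m (120), Zscan25 (140), Mapk14 (194), Trio (196) and Ranbp9 (294). Within 3000 bases of the 3′ end lay those of Lrrc45 (409 bases), Rnf166 (831), Rab1a (906), Zbed3 (1358), Slc25a23 (1927), Eif4b (2172) and Kmt2d (2674). Sites within 3000 bases of an end averaged 22.1%, and the 12 farther inside averaged 34.5%. The sites with the highest level, Rsph3b at 98.8% and Ncapd2 at 61.25%, are among these 12 and raise their mean. They lay 6408 and 5654 bases inside. Exons and introns were not analysed here, so whether a site lies in the mature transcript was not read from the annotation.

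**Figure D3:**
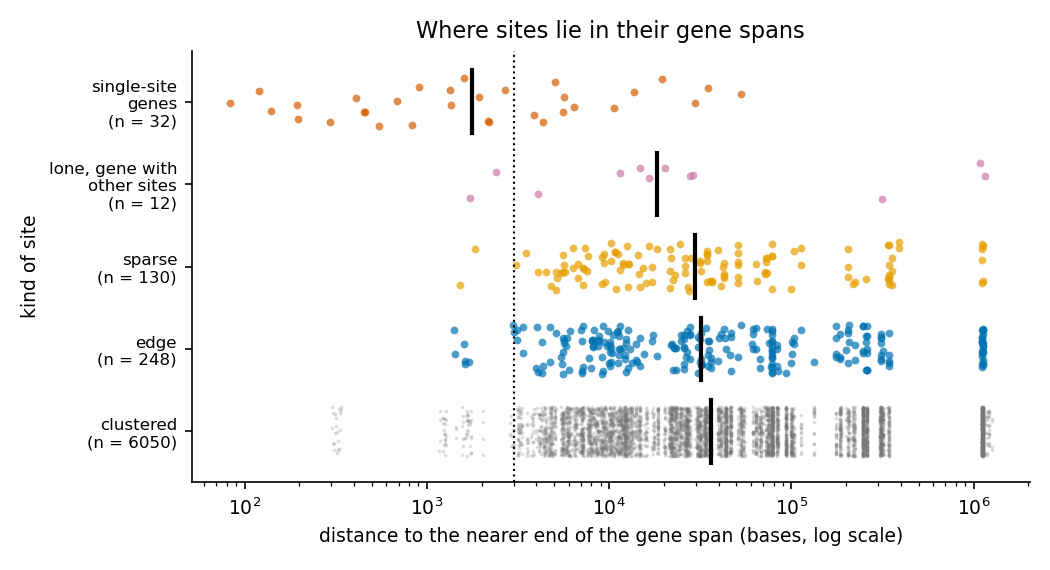
Distance in bases from a listed site to the nearer end of the RefSeq gene span that holds it (horizontal log axis), for single-site genes, other lone sites, sparse, edge and clustered sites; each point is a pair of site and gene, black bars are medians, vertical scatter within a row has no meaning, and the dotted line marks 3000 bases. The median is 1767 bases for single-site genes and 32104 bases for edge sites.

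The other lone sites were mixed. In genes with other sites, 12 lone sites averaged 27.0% ± 0.674 (SD, n = 2) and 2 of them lay within 3000 bases of a span end. Fermt3, the integrin activator kindlin-3 of blood cells, had only 2 listed sites, both lone, 1664 bases apart at 17.1% and 18.7%. In the long noncoding RNA Gm45086, 2 lone sites stood at 33.7% and 22.8%. Of 5 lone sites outside gene spans, the site at 151528451 on chromosome 2, which lies 734 bases from the long noncoding RNA Gm52533, read 100% in all 4 libraries. Another, at 75639070 on chromosome 2, stood at 60% and 50% in replicate 1 and at 66.7% and 100% in replicate 2. The other 3 had means from 12.8% to 26.8%. Genes without any clustered site numbered 39 of 110, the 32 single-site genes and 7 more with 2 or 3 sites. Besides Fermt3 and Gm45086 these were Lpxn, a paxillin relative, and the overlapping pairs Cd300lf with Rab37 and Gapdhs with Sbsn, which share their sites.

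Edge sites were slightly lower on average than the stretch beside them. The 319 edge sites averaged 41.1%, and the nearest site of the stretch 43.8%, a difference of -2.70 points ± 0.631 (SD, n = 2). Against the mean of the whole stretch the difference was -4.33 points ± 0.399, and it was -5.06 and -4.17 points in replicate 1 and -4.42 and -3.68 points in replicate 2. All 4 libraries were thus lower on average, but single edge sites varied. An edge site was lower than the mean of its stretch in every library in 88 of 319 cases (27.6%) and higher in every library in 24. No matching counts are given for clustered sites, so whether these shares are particular to edge sites is not known. Where the stretch had 10 or more sites, 49 stretch ends with an edge site could be followed inwards. The edge site averaged 48.1% ± 1.73, the end site of the stretch 51.4% ± 0.853 and the fifth site 53.6% ± 1.21 (SD, n = 2 for each).

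Some edge sites departed far from their stretch. In Igh, the immunoglobulin heavy chain locus, the edge site at 114888211 on chromosome 12 stood 43.2 points above the nearest stretch site, with 100% and 87.5% in replicate 1 and 57.1% and 90% in replicate 2. That stretch site, 23 bases away, stood at 42.9% and 27.3% in replicate 1 and at 25% and 66.7% in replicate 2. The edge site was the higher one in every library. At 114892423 in the same locus the edge site was 41.6 points lower than its neighbour 13 bases away, with 20% and 25% in replicate 1 and 33.3% and 28.6% in replicate 2 against 90.9%, 66.7%, 72.7% and 42.9%. The edge site at 114892438, which has the same nearest stretch site, was 32.3 points lower. Dock10, a guanine nucleotide exchange factor, had an edge site at 80579634 on chromosome 1 that was 37.8 points lower than the nearest stretch site. It stood at 27.3% and 18.2% in replicate 1 and at 18.8% and 75% in replicate 2, against 58.3%, 58.3%, 73.7% and 100% in its neighbour. A site outside genes at 66097317 on chromosome 6 was 36.7 points lower.

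**Figure D4:**
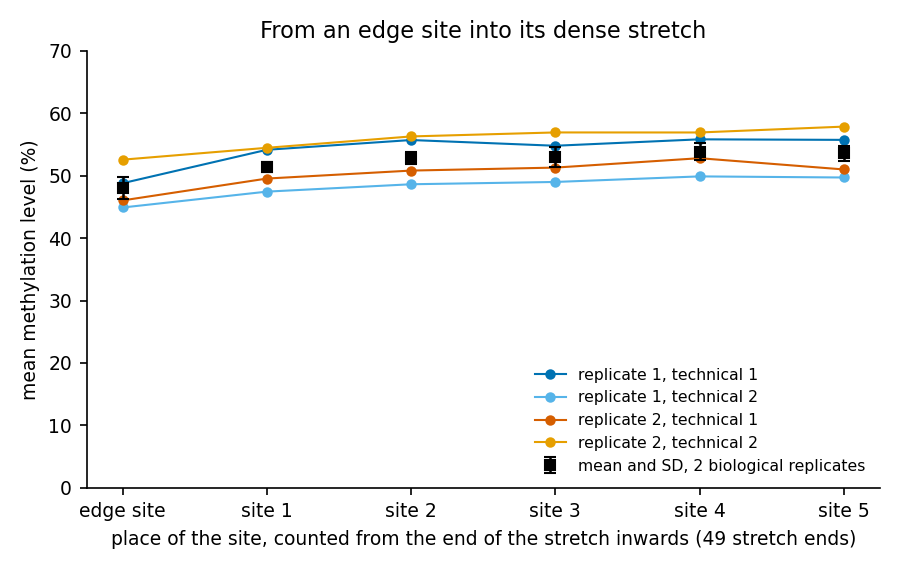
Mean methylation level in percent (vertical axis) of edge sites and of the first 5 sites of the dense stretch beside them, counted inwards (horizontal axis), over 49 ends of stretches with 10 or more sites; coloured lines are the 4 Tet2-deficient libraries, black squares the mean and bars the SD of 2 biological replicates. The edge site is the lowest point in each library, at 48.1% on average against 51.4% to 53.8% inside the stretch.

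Isolated sites were also set beside the clustered sites of the same gene. Of 58 genes with both kinds, isolated sites were lower in every library in 19, higher in every library in 8 and mixed in 31. With each gene counted once the mean difference was -4.92 points, against -14.3 over all sites without regard to gene. Genes with 5 or more isolated sites numbered 26 and had a mean difference of -8.06 points. Of these, 14 had the isolated sites lower in every library and 2 had them higher in every library, the long noncoding RNA Gm36408 and Cyp4a12b. The largest gaps were -35.8 points in 2010315B03Rik, with 6 isolated sites, and 20.7 points in Zfp65, with 1.

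The 6 genes with the most isolated sites all had them lower than their clustered sites in every library. Inpp4b had 44 isolated sites at 42.1% and 39.3% in replicate 1 and at 36.0% and 38.9% in replicate 2, against a mean of 52.9% for its clustered sites. The Inpp4b sites ran from 14.3% to 87.5%. Igh had 31 at 57.5% ± 0.465 (SD, n = 2), a difference of -8.45 points from its clustered sites. A sparse Igh site at 114886790 read 100% in all 4 libraries, whereas the locus's 2 lone sites, at 114858375 and 114931161, had means of 20.3% and 15.2%. Pde1c, a cyclic nucleotide phosphodiesterase, had 19 at 56.6% ± 1.91 and a difference of -12.6 points. Olfr1033, an olfactory receptor gene, had 16 at 29.8% ± 2.21 (SD, n = 2), none above 40.7%. Mctp1, a calcium-binding membrane protein, had 14 at 30.9% ± 2.91 (SD, n = 2) and a difference of -22.4 points. Lgals8, the gene of galectin-8, was unlike these in that 7 of its 10 listed sites were isolated, at 21.0% ± 2.18 (SD, n = 2). Its 3 clustered sites stood at 18.8% ± 1.09 (SD, n = 2), and the isolated ones were lower than these in only 1 library.

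**Figure D5:**
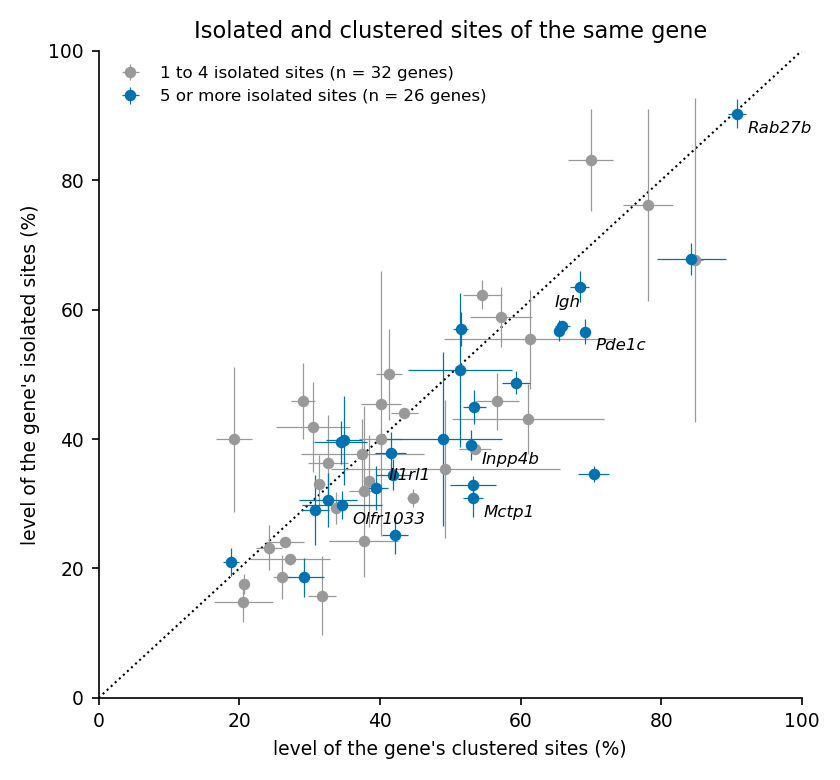
Mean level in percent of a gene's isolated sites (vertical axis) against that of its clustered sites (horizontal axis) for the 58 genes with both kinds; points are genes, bars the SD of 2 biological replicates, and the dotted line marks equal levels. Named are the 6 genes with the most isolated sites, which lie below the line, and Rab27b, which lies near it.

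Agreement between libraries differed by kind. Technical pairs of libraries differed by 12.7 points per isolated site on average, and biological pairs by 12.7 points as well. For lone sites the technical gap was 7.43 and the biological gap 9.93 points, and for edge sites they were 13.4 and 13.3 points. Lone sites also have lower levels, and the part of the level in their gaps was not tested beyond the following values. Among sites with a mean under 30% the technical gap was 6.08 points for 33 lone, 7.32 for 77 sparse, 9.54 for 127 edge and 8.56 for 1829 clustered sites. The biological gaps of these sites were 6.72, 7.64, 8.61 and 8.55 points, so lone sites had the smallest gaps of the 4 kinds in this range too. Their mean level was also the lowest there, at 18.7%, against 19.7% for sparse, 21.1% for edge and 22.7% for clustered sites. The range thus does not separate kind from level. Both libraries of 1 replicate were above both of the other at 164 isolated sites (30.6%), where 30.4% of all listed sites did so. Among lone sites this held for 21 of 48 (43.8%), with replicate 1 higher in 10 and replicate 2 higher in 11. Reading the column names the other way round, with biological replicates in the second place, it held for 9 lone sites (18.8%), where 26.3% of all listed sites did so. The lone share was thus above that of all sites under the reading used here and below it under the other. The 3 edge sites with the largest gap between replicates lay in Inpp4b at 81958543 on chromosome 8, with 81.8% and 80.0% against 33.3% and 25%, in Zfand6 at 84627747 on chromosome 7, with 40% in both libraries against 100% and 83.3%, and in Dock10 at 80579703 on chromosome 1, with 50% and 37.5% against 84.6% and 100%. Trio and a sparse site outside genes, at 57682266 on chromosome 8, with 57.1% and 40% against 100% and 80.0%, followed.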

How the data were processed

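The deposited table gives, per the file headers, a methylation rate per site and library, a fraction; levels here are in percent. Its first line calls the sites specific to Tet2-deficient cells. The labels' protocols give DNase-treated poly(A) RNA, bisulfite conversion with unmethylated lambda RNA as a control, and stranded paired-end libraries. The submitters' processing notes name mm10 and GRCm38; aligner, caller, coverage minimum and conversion rate: not given in the sources used here. In matching columns to titles, the first number of a column name was taken for the biological and the second for the technical replicate. Technical replicates were averaged before the SD was taken over 2 biological replicates. Labels do not say whether biological replicates were separate mice.

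Sites were sorted by position, and gene spans, strands and promoter windows came from RefSeq, GRCm38 patch 6. A site in 2 spans counts for both genes. Regions join sites up to 500 bases apart. The classification was tested on simulated positions. No wild-type levels were analysed here, so the planned comparison of genotypes was not run and no p-value was computed. The members and gene lists were chosen with earlier results of these data known. Named genes were isolated sites in list genes, the 8 highest and 8 lowest single-site genes, sites at 90% or more in every library, the 6 genes with the most isolated sites, the 5 largest gaps between replicates and the 5 largest differences from a stretch; others were chosen after their values were seen. Tools were Python 3.11.15, numpy 2.4.6, pandas 2.3.3 and matplotlib 3.10.9.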

Additional observations from a re-analysis of the deposited data

Results flagged for a closer look

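In all, 82 values were searched for a single library that departed from the other 3. They were the means of 8 kinds of site, 48 lone sites and 26 genes with 5 or more isolated sites. In 6 of them the gap between the extreme library and the next one took up a large share of the whole range. The share required is one that chance exceeds in about 1 of 20 groups. At that rate several of 82 values would be flagged by chance alone, so the number 6 is not read as a result. The values also overlap, since lone sites enter the means of their kinds. In the mean of lone sites outside gene spans, technical replicate 2 of biological replicate 2 stood at 54.3%, while the others lay between 42.9% and 44.6%. That mean covers 5 sites. The site at 75639070 on chromosome 2 stood at 100% in that library and between 50% and 66.7% in the others. The lone Igh site at 114858375 on chromosome 12 stood at 40% in technical replicate 1 of replicate 1 and between 11.8% and 15% in the others. Rsph3b stood at 95.2% in technical replicate 2 of replicate 2 and at 100% elsewhere, so any lower value in that library would have been flagged. The site shared by Zscan25 and Gm38740 stood at 16.7% in technical replicate 2 of replicate 1 and between 11.1% and 12% in the others. The isolated sites of Cyp4a12b averaged 62.2% in technical replicate 2 of replicate 2, against 54.6% to 55.7%. Those of Dock10 averaged 66.5% in the same library, against 27.4% to 33.5%. The clustered sites of Dock10 also stood highest in that library, at 65.7% against 42.7% to 44.1%, so the departure was not particular to its isolated sites. The clustered sites of Cyp4a12b did not, at 49.5% against 52.0% to 52.4%.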

How the results depend on the processing

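Distances, level minimums, medians, counting by region or gene, gene spans and leaving out replicates were listed as alternatives at the outset; distances to span ends and the other reading of column names for gaps and overlaps were chosen after seeing the data. The mean level of isolated sites, 38.3%, became 43.5%, 33.4% and 32.6% with isolation distances of 5, 20 and 50 bases, 31.3% as the mean of library medians, 37.4% with each region counted once and 52.6% at 20% or more in every library. Their number, 536, became 1490, 226 and 106 at those distances and 292 at 20% or more in every library. The difference from clustered sites, -14.3 points, kept its sign in every alternative run: -17.6 for medians, -5.68 and -4.92 with each region or gene counted once and -8.65 at 20% or more in every library. All of these kept isolation as defined over the full listing, so they cannot show how far the listing itself makes the difference. Edge sites averaged 42.9% beside stretches of 5 or more sites, 44.6% with a reach of 25 bases, which left 210 of them, and 40.2% with 150 bases. Lone sites numbered 73 at 30.1% when defined by 100 bases. Single-site gene sites averaged 29.2% with spans extended by 1000 bases. The site lay near a span end in 13 single-site genes within 1000 bases and in 22 within 5000 bases. Under the other reading of column names 9 lone sites had replicates that did not overlap, against 21, and 6 single-site gene sites, against 16, and the technical gap of lone sites was 10.3 points, against 7.43. With a replicate left out, means ran from 38.1% to 38.6% for isolated, 40.6% to 41.6% for edge, 28.5% to 29.4% for lone and 25.6% to 28.2% for single-site gene sites, and the difference from -14.5 to -14.1 points; each such value rests on 1 replicate. Depth limits could not be given without read numbers. No paired analysis was possible because no wild-type levels were analysed here.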
